A study of Pomacea canaliculata with 34 samples.

Results

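In the developing apple snail Pomacea canaliculata, reads were counted for 21131 genes, and 105 of these, or 0.497%, were abundant at every stage sampled. They were chosen on level alone. Each count was divided by its library's total and expressed per 1000000 reads (counts per that many reads, CPM), the values were averaged within a stage, and the lowest of the 10 stage means had to reach 500 CPM. That lowest mean could fall at any stage, so the choice names no direction between stages. It does bound how low a gene could start or end, since genes under 500 CPM at any stage are left out. All genes tested, used below as the background, include such genes. Because the choice used the levels, these are given as a description, and no test was made of how abundant these genes are.

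The study followed embryonic development in whole animals at 9 embryonic stages, numbered from Stage 2 to Stage 10, and in hatchlings. Stages 2 to 7 have 3 libraries each, and Stages 8, 9 and 10 and the hatchlings have 4 each, 34 libraries in all. Trizol was used on whole embryos freed from the egg, and the libraries hold polyadenylated RNA. The labels name no strain, genotype, treatment or age in days, and the series' title places the time course beside work on regeneration of the camera-type eye. Whether the libraries of a stage came from separate clutches or from pools of embryos is not given in the sources used here, and p-values thus speak only to how far these particular libraries scatter, which may be technical.

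Animal embryos begin with messenger RNA loaded into the egg by the mother and later rely on transcripts from their own genome. Transcripts abundant through the whole of development in animals commonly include those for the protein-synthesis machinery, the cytoskeleton and energy metabolism. RNA from a whole animal mixes all its cells, so fewer cells of one type and less RNA per cell cannot be told apart. The deposited identifiers and the reference gene table used here pair none of the 105 genes with a product, so each gene is called by its identifier and given no role, and no tissue or cell type markers could be checked. No transcript lengths were used, so the order of genes by CPM is an order by reads and not by molecules.

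Library totals ranged from 13392123 to 95942469 reads, and the widest ranges within a stage came from Stage 8 onward, where the number of libraries also went from 3 to 4, so stage and these differences cannot be told apart between Stage 7 and Stage 8. The lowest count of any of the 105 genes in any library was 7222 reads, which carries a counting error of 1.18%, so depth put little limit on these values. All 105 genes passed the filter on low counts and entered the fit of 17441 genes. In 89 of the 105 genes every single library reached 500 CPM, and the others dipped below it in at least 1 library.

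The share of all reads that fell in the 105 genes was lower at each successive stage. In the 3 libraries of Stage 2 they took 23.7, 23.1 and 23.1% of the reads, a mean of 23.3% ± 0.334 (SD, n = 3). By Stage 6 the libraries stood at 17.7, 17.2 and 17.5%, and in the 4 hatchling libraries at 11.3, 11.1, 11.1 and 11.3%, a mean of 11.2% ± 0.0982 (SD, n = 4). The libraries of neighbouring stages did not overlap, apart from those of Stages 8 and 9, which lay between 12.9% and 13.7% and between 12.4% and 13.2%. The 183 genes with a lowest stage mean from 250 to 500 CPM, the next band down, also took less, from 13.5% ± 0.144 of reads at Stage 2 to 7.49% ± 0.159 in hatchlings.

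The reads of other abundant genes followed another course. At Stage 2, 189 genes outside the set stood at 500 CPM or more, and together they held 16.9% ± 0.302 of the reads (SD, n = 3). Their counterparts at Stage 7 were 153 genes with 12.4% ± 0.132 (SD, n = 3), and in hatchlings 142 genes with 16.6% ± 1.35 (SD, n = 4). These lists differ from stage to stage, and 414 genes reached 500 CPM at some stages but not at all of them. The 105 genes held more reads than the other abundant genes in the stage means of Stages 2 to 7, and fewer from Stage 8 onward.

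**Figure D1:**
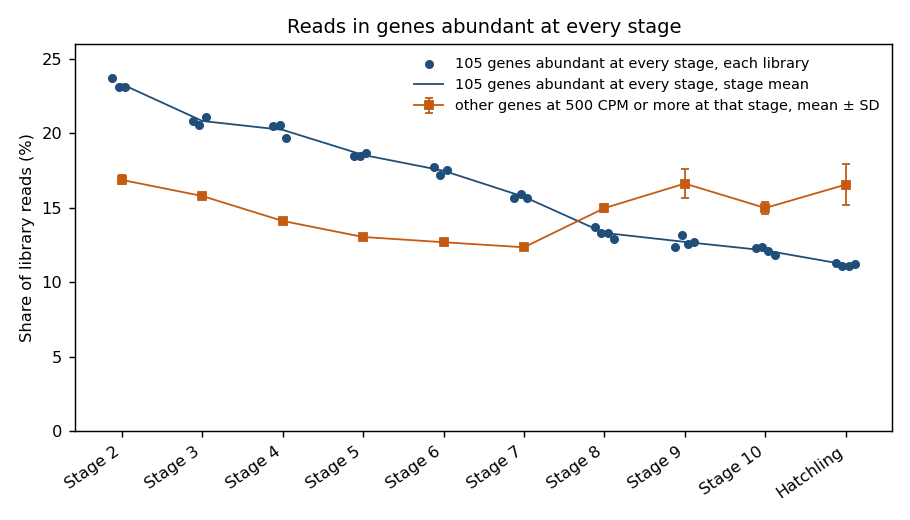
Share of library reads in percent by stage, for the 105 genes abundant at every stage (points are libraries, the line joins stage means) and for the other genes at 500 CPM or more at that stage (squares with bars, mean ± SD). The share of the 105 genes goes from 23.3% at Stage 2 to 11.2% in hatchlings and passes below that of the other abundant genes between Stage 7 and Stage 8.

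The top of the read ranking changed in the same way. All of the 10 most read genes at Stages 2 and 3 belonged to the set, 8 did at Stage 7, 5 at Stage 8 and 2 in hatchlings. Of the 105 most read genes at Stage 2, 78 were in the set, against 50 in hatchlings, and the median rank of the 105 genes went from 61 to 108. Their median level, in CPM after scaling by the trimmed mean of M-values (TMM), which is called normalised CPM here and used for all levels, fold changes and tests that follow, was 2243 at Stage 2, 1300 at Stage 6 and 748 in hatchlings. On that scale the lowest stage mean of 12 genes lay under 500, in hatchlings for most of them. The TMM factors were 0.775 to 0.814 at Stage 2 and 1.06 to 1.10 in hatchlings.

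Genes just inside and just outside the threshold differed little in their lowest stage mean. LOC112575010 entered with a lowest mean of 500.1 CPM, at Stage 9, followed by LOC112575824 with 506 CPM and LOC112557091 with 509.6 CPM, both in hatchlings. The first 3 genes left out were LOC112558984 with 494 CPM, LOC112561712 with 492 CPM and LOC112571714 with 491 CPM, all in hatchlings.

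Abundance at every stage did not mean a constant level. In edgeR's quasi-likelihood F-test over the 10 stages, all 105 genes were called at an adjusted p under 0.05, where 95.4% of all genes tested were called. The largest adjusted p among them was 0.00157 by the edgeR F-test, for LOC112575628. The ratio of the highest to the lowest stage mean had a median of 3.28 over the 105 genes. It was under 1.5 in 3 genes, from 1.5 to 2 in 16, from 2 to 4 in 55 and 4 or more in 31. On library totals without TMM the median ratio was 2.45, and 12 genes were under 1.5 and 29 under 2. Among the genes of the 250 to 500 CPM band the median ratio on normalised CPM was 2.61, and over the 15601 tested genes above 0 at every stage it was 3.59. Of those 15601 genes 7.85% were under 1.5 and 23.7% under 2, against 2.86% and 18.1% of the 105 genes. On library totals 24.4% of the 15601 genes and 27.6% of the 105 genes were under 2, and 1232 of the 15601 and 12 of the 105 were under 1.5. The share of the 105 genes under either value was thus below that of the 15601 genes with TMM and above it on library totals.

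Most of these genes fell over the series, and few rose. Between Stage 2 and Stage 6, 85 genes fell and 10 rose at an adjusted p under 0.05 with edgeR, against a background of 26.3% of all genes tested called lower and 37.3% called higher. Of the 183 genes of the 250 to 500 CPM band, 127 were called lower and 27 higher. The median log2 fold change was -0.82 over the 105 genes, -0.55 over the 250 to 500 CPM band and 0.18 over all genes tested. On library totals without TMM, 73 genes fell and 20 rose, so that falls made up 78.5% of the calls instead of 89.5%. The background above is with TMM and does not apply there, since the median over all genes tested was then 0.52. With TMM, a change of at least 2-fold was called lower for 43 genes and higher for 1 (background 9.36% lower and 24.6% higher). The libraries of Stage 6 lay wholly below those of Stage 2 in 89 genes and wholly above them in 10 (background 27.3% and 39.1%).

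From Stage 6 to the hatchling, 94 genes fell and 6 rose with edgeR (background 34.9% lower and 43.3% higher), and 31 of the falls and none of the rises were at least 2-fold (background 14.5% lower and 32.2% higher). The median log2 fold change over the 105 genes was -0.75, against -0.59 in the 250 to 500 CPM band and 0.17 over all genes tested. Of the 183 genes of that band, 148 were called lower and 19 higher. Across the whole span, hatchling against Stage 2, 99 of the 105 genes fell and 4 rose with edgeR (background 34.2% lower and 52% higher). Of these, 73 falls and 1 rise were at least 2-fold (background 20.9% lower and 42.7% higher). The median log2 fold change of -1.58 compares with -1.18 in the band and 0.56 over all genes tested. Of the 183 genes of the band, 153 were called lower and 17 higher. Genes low at Stage 2, which the floor kept out of the set, are part of the background. In 99 of the 105 genes every hatchling library lay below every Stage 2 library, and in 5 every one lay above (background 32.7% and 50.4%). On library totals without TMM, 8 genes were higher in hatchlings instead of 4. The median over all genes tested was then 1.01, so the background with TMM does not apply to that count.

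The scaling moved the median of all genes as well. In hatchling against Stage 2 it was 0.56 with TMM, 0.64 with relative log expression (RLE) scaling and 1.01 on library totals. A change of scaling shifts all genes of a comparison by nearly the same amount. The position of the 105 genes relative to that median could therefore hardly move. In that comparison 102 of them lay below the median of all genes under each of the 3 scalings, and the difference between the medians was -2.15 log2 units with TMM and -2.14 with RLE and with library totals. For Stage 6 against Stage 2 the count was 96 under each scaling, and for hatchling against Stage 6 it was 99. This measure of position was chosen after the values were seen, and its steadiness under the 3 scalings is no check of the scaling. Genes low at Stage 2, which the floor kept out of the set, count in the median of all genes.

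**Figure D2:**
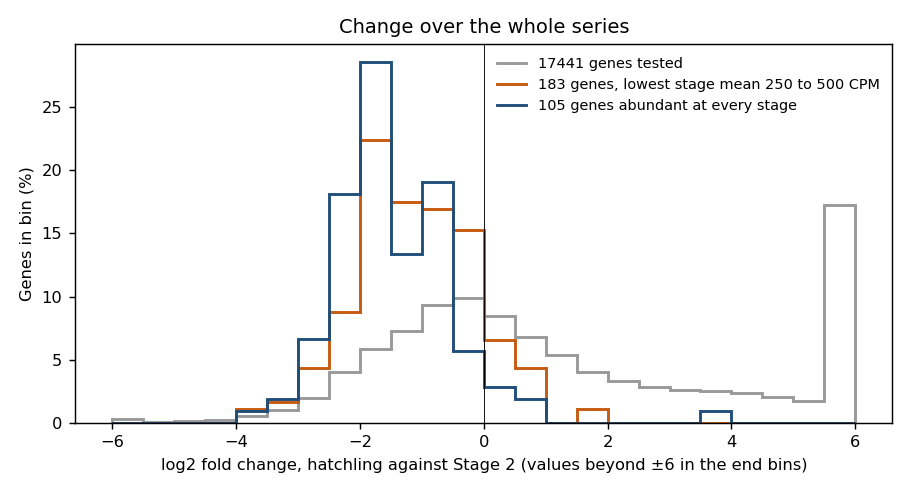
Distribution of log2 fold changes (edgeR, TMM) in hatchling against Stage 2, as the percent of genes per bin, for the 105 genes, for the 183 genes of the 250 to 500 CPM band and for the 17441 genes tested, with values beyond ±6 in the end bins. The 105 genes lie mostly below 0 with a median of -1.58, the band has a median of -1.18 and all genes tested a median of 0.56.

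The falls were spread over many steps. Of the 105 genes, 76 had their highest normalised stage mean at Stage 2 and 82 their lowest in hatchlings, against 22.3% and 25.1% of all genes tested. In 42 genes, or 40%, the stage mean was lower at each of the successive steps, against 23.0% of the 250 to 500 CPM band and 5.17% of all genes tested. On library totals this held for 21 genes, or 20%, against 12.6% of the 250 to 500 CPM band and 2.33% of all genes tested. No gene of the set had a higher mean at every step, against 0% of the 250 to 500 CPM band and 1.55% of all genes tested. The median log2 step of the 105 genes was negative throughout, from -0.31 between Stages 4 and 5 to -0.08 between Stages 9 and 10 and between Stage 10 and the hatchling.

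**Figure D3:**
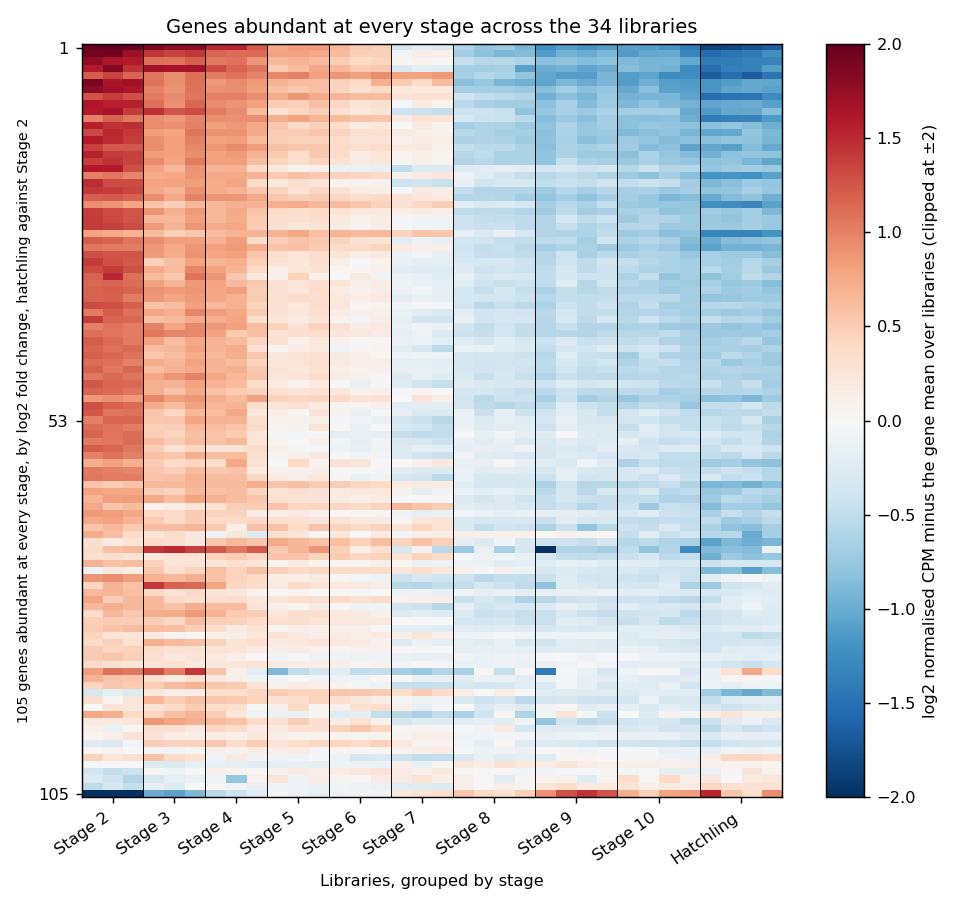
Log2 normalised CPM of each of the 105 genes in each of the 34 libraries, less the gene's mean over libraries and clipped at ±2, with rows ordered by the log2 fold change in hatchling against Stage 2 and columns grouped by stage. Most rows go from above their mean at Stage 2 to below it in hatchlings, and the few rows at the bottom run the other way.

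The most read gene over the series, LOC112562047, had a lower mean at every step. Its 3 libraries at Stage 2 read 16144, 16467 and 16030.4 normalised CPM, those at Stage 6 7992, 7593 and 7863, and the 4 hatchling libraries 4638, 4329, 4404 and 4184. No library of one of these stages overlapped with those of another. The mean went from 16214 ± 227 (SD, n = 3) to 4389 ± 189.5 (SD, n = 4) between Stage 2 and the hatchling, giving a log2 fold change of -1.89 (SE 0.058, adjusted p = 6.19e-22 by edgeR).

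LOC112574335 was also among the most read genes over the series, and it fell too. At Stage 2 it read 12525, 11169.8 and 11195 normalised CPM, and in hatchlings 2429, 2535, 2751 and 2641, with no overlap (log2 fold change -2.17, SE 0.071, adjusted p = 2.59e-21 by edgeR). Its course was not smooth, since the 3 libraries of Stage 7 lay between 3309 and 3486 while those of Stage 8 lay between 3519 and 4072. LOC112554522, another highly read gene, went from 8177 ± 244 normalised CPM (SD, n = 3) at Stage 2 to 2467 ± 31.8 (SD, n = 4) in hatchlings, giving a log2 fold change of -1.73 (SE 0.053, adjusted p = 6.02e-22 by edgeR). Both genes fell after Stage 6 as well, with log2 fold changes of -0.89 and -0.73 in hatchling against Stage 6 (edgeR adjusted p = 3.31e-12 and 4.90e-13).

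The level also fell in LOC112556574, again among the 8 most read genes. Its libraries read 7965, 8187 and 7581 normalised CPM at Stage 2, 4885, 5556 and 5653 at Stage 7 and 3841, 3704, 3786 and 3789.9 at Stage 8. All the Stage 8 libraries lay below the Stage 7 libraries. Over the whole span the log2 fold change was -1.34 (SE 0.054, adjusted p = 2.07e-19 by edgeR), and between Stage 2 and Stage 6 the log2 fold change was -0.53 with TMM and -0.19 on library totals.

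LOC112572088, also highly read, was not called between Stage 2 and Stage 6 and fell after it. Its libraries read 6889.8, 6663 and 6439 normalised CPM at Stage 2 and 6348, 6197 and 6208 at Stage 6, a small difference (log2 fold change -0.092, SE 0.057, adjusted p = 0.161 by edgeR). That early difference depended on the scaling, at -0.18 with RLE scaling (edgeR adjusted p = 0.00838) and 0.25 on library totals. The 3 libraries of Stage 7 read 5375, 5882 and 5759, the 4 of Stage 8 3524, 3236, 3555 and 3167 and the 4 of the hatchling 1601, 1562, 1573 and 1719, with no overlap among these 3 stages. In hatchling against Stage 6 the log2 fold change was -1.95 (SE 0.053, adjusted p = 2.39e-21 by edgeR).

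The largest falls over the series belonged to 6 genes, and LOC112557378 led them. It read 8122, 8386 and 6727 normalised CPM at Stage 2, 2717, 2471 and 2376 at Stage 6 and 476, 483, 516 and 547 in hatchlings. The hatchling libraries lay near the floor used to choose the set, and all the Stage 2 libraries lay far above them. The mean went from 7745 ± 891 (SD, n = 3) to 506 ± 32.5 (SD, n = 4), giving a log2 fold change of -3.94 (SE 0.090, adjusted p = 2.17e-24 by edgeR).

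LOC112573974 and LOC112558845 also combined a high early level with a large fall. LOC112573974 read 7812, 7824 and 6667 normalised CPM at Stage 2 and 706, 752, 783 and 881 in hatchlings (log2 fold change -3.25, SE 0.080, adjusted p = 7.01e-24 by edgeR). LOC112558845 read 6336, 7475 and 5809 at Stage 2, 6762, 6579 and 6649 at Stage 3 and 741, 812, 822 and 980.3 in hatchlings (log2 fold change -2.96, SE 0.11, adjusted p = 1.43e-20 by edgeR). In this gene the libraries of Stages 2 and 3 overlapped, and the stage means were lower from Stage 4 on. LOC112575824, one of the genes just inside the threshold, went from 3852 ± 281 normalised CPM (SD, n = 3) to 468 ± 11.8 (SD, n = 4), giving a log2 fold change of -3.04 (SE 0.053, adjusted p = 2.66e-26 by edgeR).

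The other two genes of largest fall differed in timing. LOC112560485 read 3294, 3613 and 3196 normalised CPM at Stage 2, 2491, 2488 and 2564 at Stage 7, 899, 959, 918 and 819 at Stage 8 and 446, 492, 448 and 510.4 in hatchlings. Its Stage 7 libraries all stood more than 2-fold above its Stage 8 libraries, whereas between Stage 2 and Stage 6 the log2 fold change was -0.37 (edgeR adjusted p = 3.67e-05) with TMM and -0.026 (edgeR adjusted p = 0.768) on library totals. Over the whole span the log2 fold change was -2.83 (SE 0.067, adjusted p = 4.66e-24 by edgeR). LOC112576312 already differed early, from 4030.3 ± 393 normalised CPM (SD, n = 3) at Stage 2 to 2485 ± 156 (SD, n = 3) at Stage 3, and then stood at 1732, 1560.3 and 1866 at Stage 7 and 679, 713, 640.3 and 623 at Stage 8. From Stage 8 to the hatchling the log2 ratio of its means was -0.22, and its whole-span result was a log2 fold change of -2.82 (SE 0.075, adjusted p = 3.39e-23 by edgeR).

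The step from Stage 7 to Stage 8 held the most large decreases. In 23 of the 105 genes the normalised stage mean was at least 1.5-fold lower at Stage 8 than at Stage 7. The log2 steps ran on without a gap at that value, from -0.59 for the smallest of the 23 to -0.57 for the next gene. At no other step did more than 9 genes show a step down of that size, and 11.6% of the 15601 genes read at every stage did so between Stages 7 and 8. On library totals the number was 21. LOC112560485 led with a log2 step of -1.48, from 2514 ± 43.0 (SD, n = 3) to 899 ± 58.8 (SD, n = 4), followed by LOC112576312 with -1.37 and LOC112566503 with -0.90. No gene of the set had a stage mean 1.5-fold or more higher at Stage 8, against 18.7% of the 15601 genes. Differences between neighbouring stages are given as values and were not tested.

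**Figure D4:**
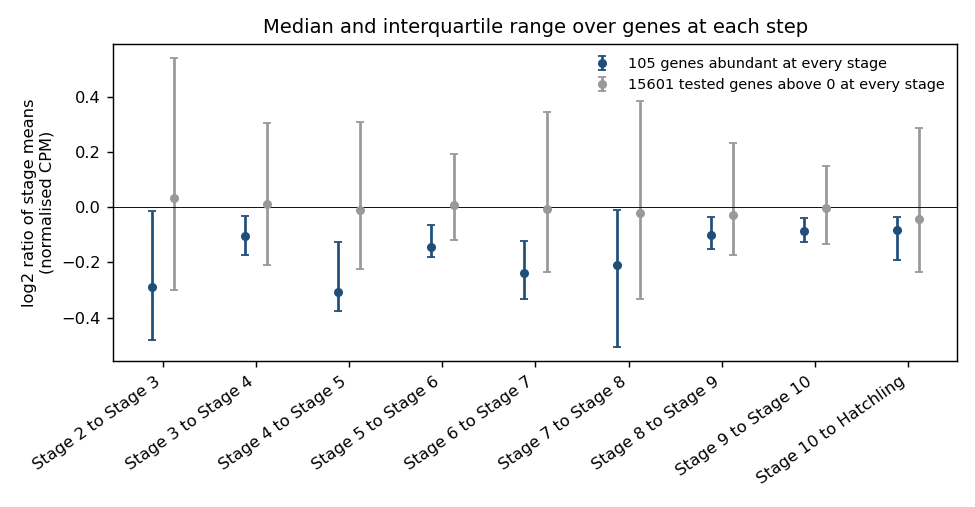
Log2 ratio of successive stage means of normalised CPM at the 9 steps, as the median (points) and interquartile range (bars) over the 105 genes and over the 15601 genes tested that were read at every stage. The medians of the 105 genes lie below 0 at each step, and their range reaches lowest between Stage 7 and Stage 8, with a lower quartile of -0.51.

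When the series was divided at Stage 6, 78 of the 105 genes, or 74.3%, fell both before and after it with edgeR, against 17.1% of all genes tested. Another 7 genes, or 6.67% against 9.10% of all genes tested, rose to Stage 6 and then fell: LOC112554799, LOC112571205, LOC112564236, LOC112575283, LOC112561995, LOC112572343 and LOC112556564. One of them was LOC112561995, whose libraries read 733, 821 and 774 normalised CPM at Stage 2, 1368, 1349.8 and 1326 at Stage 6 and 582, 497, 458 and 508 in hatchlings. None of these 3 stages overlapped, and the log2 fold changes were 0.80 to Stage 6 (edgeR adjusted p = 2.71e-12) and -1.40 after it (edgeR adjusted p = 1.57e-18). Some of the other calls depended on 1 library or on the scaling. The rise of LOC112556564 to Stage 6, at a log2 fold change of 0.14 (edgeR adjusted p = 0.0448), was lost with RLE scaling (0.476) and without replicate 3 of Stage 2 (0.0692) or replicate 1 (0.0910) or 3 (0.0731) of Stage 6. For LOC112572343 the hatchling stood below Stage 2 by a log2 fold change of -0.19 (edgeR adjusted p = 0.00809), which was lost without replicate 3 of Stage 2 (0.0805) and turned to 0.26 on library totals.

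The reverse course, a fall to Stage 6 and a rise after it, was called for 3 genes, or 2.86% against 4.71% of all genes tested, LOC112563838, LOC112567690 and LOC112558506. LOC112558506 read 1249, 1077 and 1133 normalised CPM at Stage 2, 679, 649 and 644 at Stage 7 and 1003, 1208, 1224 and 1192 in hatchlings. The libraries of Stage 2 and the hatchling overlapped while all those of Stage 7 lay below both. Its log2 fold changes were -0.59 to Stage 6 and 0.59 after it (edgeR adjusted p = 1.00e-06 and 2.46e-07), and hatchling against Stage 2 was not called at 0.0040 with TMM, though it was called at 0.45 on library totals (edgeR adjusted p = 1.06e-05). LOC112567690 went from 1515 ± 207 normalised CPM (SD, n = 3) at Stage 2 to 658 ± 37.7 (SD, n = 3) at Stage 7 and 1084 ± 52.6 (SD, n = 4) in hatchlings. Its rise after Stage 6, at a log2 fold change of 0.44 (edgeR adjusted p = 0.00815), was no longer called without replicate 3 of Stage 6 (0.0611). LOC112556774, described with the steadiest genes, rose after Stage 6, while its difference to Stage 6 was not called with TMM (-0.094), was called lower with RLE (-0.18, edgeR adjusted p = 0.00177) and was called higher on library totals (0.25, edgeR adjusted p = 7.36e-05).

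Of the remaining genes, 4, or 3.81% against 4.48% of all genes tested, fell to Stage 6 and were not called afterwards, namely LOC112573373, LOC112563541, LOC112554731 and LOC112556097. Another 9, or 8.57% against 8.71% of all genes tested, were not called to Stage 6 and fell after it, among them LOC112572088, LOC112566026, LOC112570482, LOC112567342 and LOC112575010. With RLE scaling LOC112567342 changed place, being called to Stage 6 (-0.19, edgeR adjusted p = 0.00409) and not after it (-0.10, edgeR adjusted p = 0.0755). LOC112572088, LOC112556972 and LOC112574877 were also called lower to Stage 6 with RLE (edgeR adjusted p = 0.00838, 0.00185 and 0.0218). On library totals all 9 except LOC112566026 and LOC112574877 were called higher to Stage 6, by 0.23 to 0.44. Of the 4, LOC112556097 was called higher after Stage 6 with RLE (0.21, edgeR adjusted p = 0.00641) and on library totals (0.14, edgeR adjusted p = 0.0409). These genes outside the rule for named genes are given because their patterns were few, and were picked after their values were seen.

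The 4 genes that rose between Stage 2 and the hatchling were LOC112575079, LOC112556988, LOC112575628 and LOC112564236. LOC112575079 stood far from the rest, and was second in reads over the series. At Stage 2 its libraries read 545, 602 and 905 normalised CPM, at Stage 3 2653, 2505 and 2834 and at Stage 6 4915, 5082 and 4997. The level was higher already at Stage 3, in every library. It then read 9872, 12739, 14331 and 12598 at Stage 9 and 15142, 7749.7, 6668 and 9994 in hatchlings, where replicate 1 stood well above the others. The mean went from 684 ± 194 (SD, n = 3) to 9888 ± 3766 (SD, n = 4), and its log2 fold change of 3.85 (SE 0.21, adjusted p = 3.82e-16 by edgeR) was by far the largest rise of the set. Its Stage 2 mean was the lowest of the set, and it had the widest range over stages, 18.1-fold.

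The other rises were smaller. LOC112556988 read 656, 740.2 and 665 normalised CPM at Stage 2, 877, 855 and 848 at Stage 6 and 1240.3, 1157, 1136 and 1145 in hatchlings, with no overlap. It rose both to Stage 6 and after it, and over the whole span the log2 fold change was 0.77 (SE 0.056, adjusted p = 3.60e-13 by edgeR). On library totals that value was 1.21. LOC112575628 went from 724 ± 75.7 normalised CPM (SD, n = 3) to 1083 ± 82.8 (SD, n = 4), giving a log2 fold change of 0.58 (SE 0.14, adjusted p = 3.11e-04 by edgeR), while hatchling against Stage 6 was not called (log2 fold change 0.080, SE 0.14, adjusted p = 0.596 by edgeR).

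LOC112564236 read 941, 876 and 907 normalised CPM at Stage 2, 1351, 1421 and 1487 at Stage 6 and 1099.8, 1239.6, 1463 and 1295 in hatchlings. Every later library of these stages lay above those of Stage 2, while Stage 6 and hatchling libraries overlapped. It rose to Stage 6 by a log2 fold change of 0.65 (edgeR adjusted p = 1.71e-09) and stood 0.49 above Stage 2 in hatchlings (edgeR adjusted p = 4.70e-08). Its fall after Stage 6 was called at -0.16 (edgeR adjusted p = 0.0255) but rested on single libraries, being lost without replicate 3 of Stage 6 (0.111) or replicate 1 of the hatchling (a log2 fold change of -0.089, 0.157) and larger without replicate 3 of the hatchling (-0.25). With RLE scaling its direction turned to 0.012, and on library totals it was -0.051 (0.480).

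**Figure D5:**
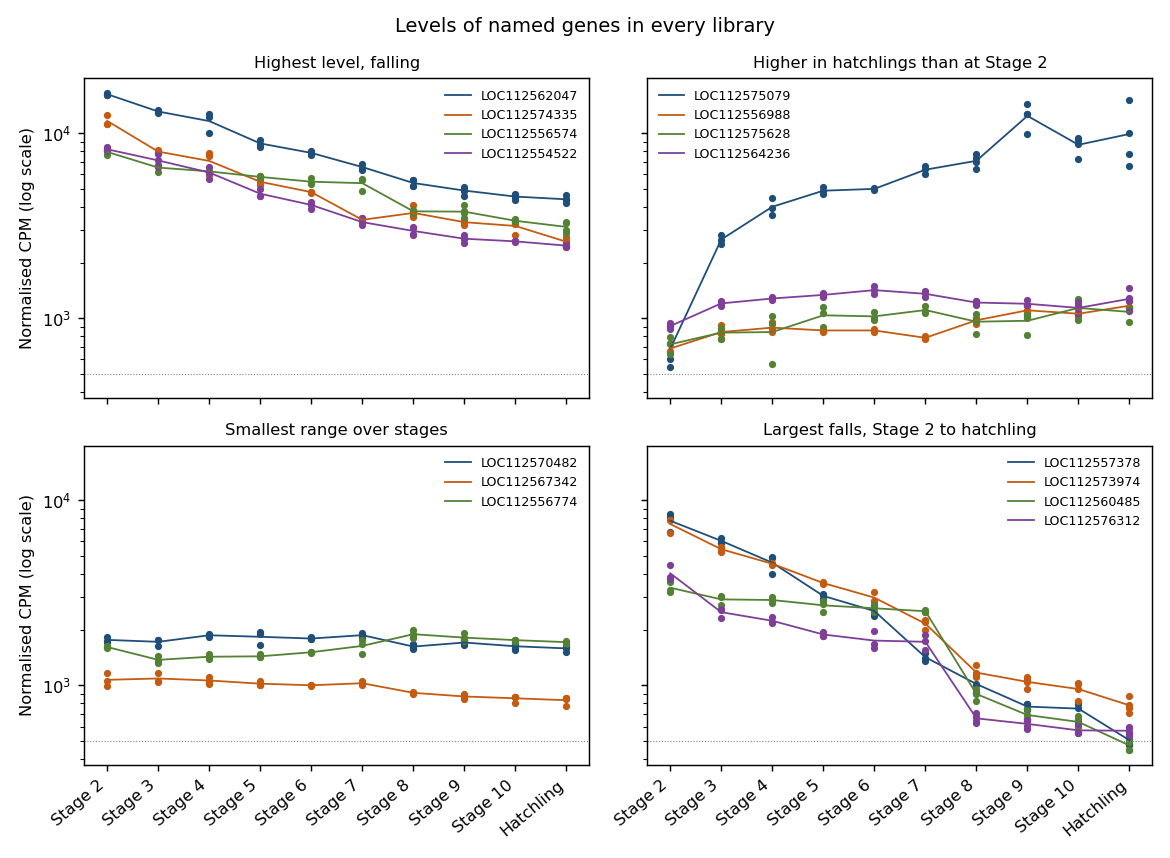
Normalised CPM (log axis) by stage for 15 named genes in 4 panels by their course, where points are libraries, lines join stage means and the dotted line marks 500. LOC112575079 goes from a mean of 684 at Stage 2 to 9888 in hatchlings, LOC112557378 from 7745 to 506, and LOC112570482 stays between 1584 and 1868.

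Few of the 105 genes kept a near constant level. On normalised CPM 3 of them had a ratio under 1.5, against 1225 of the 15601 tested genes above 0 at every stage. On library totals 12 of the 105 did, against 1232 of the 15601. In the set LOC112570482 was the steadiest on normalised CPM, with stage means from 1584 to 1868 and a ratio of 1.18. On library totals its ratio was 1.41, and LOC112563363 (1.20) and LOC112565351 (1.22) had smaller ones. In normalised CPM the libraries of LOC112570482 read 1744, 1830.0 and 1709.8 at Stage 2, 1815, 1788 and 1770.1 at Stage 6 and 1517, 1617, 1589 and 1615 in hatchlings. Stages 2 and 6 overlapped, and the hatchling libraries lay below both. The small difference of hatchling against Stage 2 was called, at a log2 fold change of -0.15 (SE 0.048, adjusted p = 0.00439 by edgeR), but it turned to 0.29 on library totals and was not called with RLE scaling, at -0.074 (edgeR adjusted p = 0.136). At this size the call follows the scaling, and the same held for hatchling against Stage 6, at -0.18 with TMM and -0.0088 with RLE (edgeR adjusted p = 0.865).

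LOC112567342 and LOC112556774 were the next steadiest on normalised CPM, with ratios of 1.31 and 1.38. On library totals the ratio of LOC112556774 was 1.77. LOC112567342 read 991, 1051 and 1173 normalised CPM at Stage 2 and 775, 851, 847 and 854 in hatchlings, without overlap, and fell by a log2 fold change of -0.37 (edgeR adjusted p = 7.35e-08) with TMM, a direction that turned to 0.079 on library totals. LOC112556774 read 1595, 1625 and 1617 at Stage 2, 1349, 1329 and 1444 at Stage 3, 1902, 1810.2, 1981 and 1869 at Stage 8 and 1725, 1731, 1723 and 1669.6 in hatchlings. Its lowest mean was at Stage 3 and its highest at Stage 8, and all its hatchling libraries lay above those of Stage 2. Hatchling against Stage 2 was not called with TMM, at 0.087 (edgeR adjusted p = 0.0819), but was called at 0.16 with RLE (edgeR adjusted p = 0.00170) and at 0.53 on library totals (edgeR adjusted p = 1.96e-11). LOC112564236, described among the genes that rose, came next with 1.56.

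Libraries of a stage lay close together for most of the set. The coefficient of variation within a stage, taken as the median over stages, had a median of 4.94% over the 105 genes, 4.76% over the 250 to 500 CPM band and 12.2% over all genes tested. Of the 3570 values of the 105 genes in the 34 libraries, 11 values, or 0.308%, stood 1.5-fold or more away from the mean of the other libraries of their stage. They came from 5 genes, LOC112563838, LOC112566026, LOC112567690, LOC112575079 and LOC112575628, and from 9 libraries.

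LOC112563838 varied most within stages, at 15.9%. It read 2048, 2479 and 2395 normalised CPM at Stage 2, 721, 679.5 and 767 at Stage 7, 431, 1121, 1050.2 and 908 at Stage 9 and 1051, 1401, 1954 and 1477 in hatchlings. Replicate 1 of Stage 9 was far below the other 3, whose mean was 1026. It fell to Stage 6 by a log2 fold change of -1.40 (edgeR adjusted p = 1.83e-05) and rose after it by 0.75 (edgeR adjusted p = 0.00531), while hatchling against Stage 2, -0.65 with TMM (edgeR adjusted p = 0.0106), was not called on library totals, at -0.20 (edgeR adjusted p = 0.396).

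LOC112566026, with 15.7%, had its highest mean at Stage 3. It read 1775, 2077 and 2166 normalised CPM at Stage 2, 3683, 3846 and 3545 at Stage 3, 326, 906, 906 and 855 at Stage 9 and 742, 770.3, 751 and 1249.5 in hatchlings. The same library, replicate 1 of Stage 9, was low here too, at 326 against a mean of 889 in the other 3. Stage 6 against Stage 2 was not called, at -0.23 (edgeR adjusted p = 0.443), and hatchling against Stage 6 was, at -0.96 (edgeR adjusted p = 6.92e-04). Across all 34 libraries, after each stage's mean was removed on the log2 scale, LOC112563838 and LOC112566026 deviated together (r = 0.68), as did LOC112563838 and LOC112575010 (r = 0.75), and LOC112557139 with LOC112563838 (r = 0.79). These correlations share libraries and scaling factors and are given as a description.

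LOC112575010, the gene just inside the threshold, followed LOC112566026 over stages at r = 0.98 on log2 stage means. It read 763, 771 and 798 normalised CPM at Stage 2, 1235, 1178 and 1126 at Stage 3, 394, 517, 468 and 493 at Stage 9 and 499.9, 587, 626 and 551 in hatchlings. Stage 3 lay above all the other stages named here, and replicate 1 of Stage 9 was again the lowest of its stage. In hatchling against Stage 2 the log2 fold change was -0.46 (edgeR adjusted p = 4.62e-06) with TMM, but -0.013 (edgeR adjusted p = 0.875) on library totals.

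The stage profiles of the 105 genes were much alike. Over the 10 stage means on the log2 scale, the median Pearson correlation of the 5460 pairs was 0.90, and 90.7% of the pairs were positive. LOC112575128 had the most genes close to it, with 42 at r of 0.98 or more, the nearest being LOC112571429 (r = 0.998). LOC112575128 went from 3978 ± 57.0 normalised CPM (SD, n = 3) at Stage 2 to 2024 ± 97.9 (SD, n = 3) at Stage 6 and 1076 ± 64.0 (SD, n = 4) in hatchlings, and LOC112571429 from 2806 ± 114 to 1465 ± 34.7 and 841 ± 51.4. All of these 43 genes had negative log2 fold changes in hatchling against Stage 2, from -3.94 to -0.73 with a median of -1.95, and not all declined at every step, since the log2 step from Stage 7 to Stage 8 ranged from -0.90 to 0.12. Once stage means were removed, the median correlation over 34 libraries was 0.52 within that group of 43, 0.23 over the other pairs and 0.28 over all pairs.

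Named genes of high level had near partners in the set. The profile of LOC112562047 was most like that of LOC112563370 (r = 0.999), that of LOC112574335 like LOC112558892 (r = 0.996), that of LOC112558845 like LOC112557378 (r = 0.996), and that of LOC112573974 like LOC112553909 (r = 0.998). LOC112575079 had no partner so close, with LOC112556988 nearest (r = 0.85) and LOC112571851 least like it (r = -0.98). Each of these correlations rests on 10 stage means.

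In the order of genes along the reference assembly ASM307304v1, used here for names and neighbours only, the 105 genes lay on 14 linkage groups, with LG1 holding 16 and LG4 holding 15. The share of all genes on each linkage group was not computed, so these counts are a description. Direct neighbours made up 2 pairs, and no expected number of pairs was worked out. LOC112556971 and LOC112556972 had log2 fold changes of -2.08 and -1.44 in hatchling against Stage 2 and profiles alike at r = 0.98. LOC112559299 and LOC112559300 changed by -1.51 and -1.43, with r = 0.93. Whether reads could be shared between neighbouring or similar genes depends on how the authors counted, which is not given in the sources used here, so the values of such genes are uncertain.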

How the data were processed

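RNA from whole embryos and hatchlings was sequenced in 34 libraries. The authors deposited raw read counts per gene, made with STAR per the submitters' processing notes; for its version, the genome build, annotation, strand setting and handling of multi-mapping reads, nothing is given in the sources used here. All 21131 identifiers matched the reference gene table, which gave 0 product names.

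Stages came from the labels. CPM on library totals chose the set and gave read shares. Levels are CPM with TMM scaling. Tests used edgeR 4.0.16 (R 4.3.3), its quasi-likelihood fit on all 34 libraries with stage as the only factor and 24 residual degrees of freedom, after filterByExpr with a minimum count of 10, with Benjamini-Hochberg adjustment over 17441 genes and a threshold of 0.05. The fit was also run on simulated data in which only a small part of the genes changed. Most genes changed here, so that run is no check of the scaling or the calls in these data. DESeq2 1.42.0, limma-voom 3.58.1, RLE scaling, library totals, no filter, 2-stage fits, a replicate block and each library left out were alternatives.

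Named genes were the 8 of highest level, the 6 largest rises and falls in hatchling against Stage 2 (only 4 rises qualified), the 4 smallest and largest ratios over stages, the 3 of largest spread within stages and the 3 on either side of the threshold. The set and the comparisons were chosen with earlier results of these data known. Correlations and neighbour order are descriptions.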

Additional observations from a re-analysis of the deposited data

Results flagged for a closer look

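In stages with 4 libraries, 1 library stood apart from the other 3 by more than Dixon's 95% critical value in 10 of 92 groups examined (the share of reads and 22 named genes over Stages 8 to 10 and the hatchling). Chance flags about 1 in 20 independent groups. These groups share libraries and scaling factors, and some of the genes were named for their large spread within stages, so the count is a description. All values are in normalised CPM.

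The largest gaps were in LOC112566026, at 326 in replicate 1 of Stage 9, where the others read 855 to 906, and at 1249.5 in replicate 4 of the hatchling, where the others read 742 to 770.3. LOC112558845 read 998 in replicate 4 of Stage 8, against 1307 to 1347. LOC112575628 read 814 in replicate 3 of Stage 9, against 1009 to 1042, and 960.2 in replicate 2 of the hatchling, against 1105 to 1133. LOC112576312 read 619 in replicate 2 of Stage 10, against 551 to 562.

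The gaps were small in size in the steady genes, whose libraries lay close together. LOC112567342 read 808 in replicate 4 of Stage 10, against 863 to 871, and 775 in replicate 1 of the hatchling, against 847 to 854. LOC112556774 read 1723 in replicate 3 of Stage 10, against 1763 to 1769, and 1669.6 in replicate 4 of the hatchling, against 1723 to 1731.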

How the results depend on the processing

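Library totals in place of TMM gave 20 genes higher in Stage 6 against Stage 2 and 8 in hatchling against Stage 2. Other counts of calls stayed within 1.5 times of those reported. The shares of all genes called under these alternatives are not given here. A floor of 250 CPM gave 288 genes and one of 1000 CPM gave 23. Without each library's own 10 most read genes the set held 17.9% of the remaining Stage 2 reads and 10.4% of the remaining hatchling reads. Chosen on the lowest single library, the set held 21.2% and 9.17% of all reads. Leaving out 1 library at a time gave 104 to 108 genes, shares of 23.1% to 23.4% and 11.2%, 93 to 94 calls in Stage 6 against Stage 2 (9 to 10 higher, 83 to 85 lower), 98 to 102 in hatchling against Stage 6 (5 to 6 and 93 to 96), 102 to 103 in hatchling against Stage 2 (4 and 98 to 99) and 105 over all stages.

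Directions turned with library totals in Stage 6 against Stage 2 for LOC112572088 (0.25), LOC112567342 (0.24), LOC112556774 (0.25), LOC112575010 (0.32) and LOC112556972 (0.23), and in hatchling against Stage 2 for LOC112570482 (0.29), LOC112567342 (0.079), LOC112575283 (0.0035) and LOC112572343 (0.26). LOC112564236 in hatchling against Stage 6 turned to 0.012 with RLE and with DESeq2. The cause of these turns was not tested. Beyond these 11 results, over all settings 27 calls were lost, 34 were gained and 1486 results kept their side of the threshold. These counts cover the named genes and the other genes of the set not called lower both to Stage 6 and after it.

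Same-numbered libraries correlated at -0.031 to 0.059 in their deviations in the 3 comparisons, so they showed little shared deviation there. The labels do not say whether a number marks a shared clutch, batch or run, and that was not tested. With the number as a replicate block 95, 100 and 103 genes were called in the 3 comparisons and 105 over all stages, the counts without it.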
